A study of Mus musculus with 10 samples.

Results

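The p200 family, also called the Ifi200 or PYHIN family, is a set of interferon-inducible genes that lie side by side on mouse chromosome 1. Their proteins bind DNA through a HIN domain, and most also carry a pyrin domain, through which they bind other pyrin proteins. Some members sense DNA in the cytosol or nucleus and others act on transcription and cell growth. They are known to be expressed in leukocytes and to be induced by type I interferon. The cells that expressed them in these kidneys were not determined. The 8 genes described here were Aim2, Ifi204, Ifi203, Mndal, Ifi207, Ifi209, Ifi211 and Ifi213, chosen by gene name from 54532 genes in the count table.

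Bulk RNA sequencing was performed on kidneys of 10 male wild-type (WT) C57BL/6 mice after unilateral ureteral obstruction (UUO), in which the left ureter was tied off. Surgery was at 8 weeks of age and the mice were sacrificed 14 days later. The 5 PBS mice received vehicle, and the 5 DMM mice received dimethyl malonate, an ester of the succinate dehydrogenase inhibitor malonate, at 40 mg/kg by intraperitoneal injection on alternate days. All 10 kidneys were obstructed, so that the comparison is between treatments of injured kidney, with no uninjured kidney among the groups. Library totals had a median of 17825223 counts in the PBS group (lowest 16457495, highest 18078777) and of 16794390 counts in the DMM group (lowest 15722527, highest 19475833). The kidney label was checked by Umod, made by the thick ascending limb, which stood between 1001 and 3704 CPM (counts scaled to the normalized library total) across the 10 libraries.

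Some libraries stood apart before any test of the family. The group means that the authors deposited give a weight above 0 to 8 of the libraries, 4 from each group, and a weight of 0 to PBS replicate 3 and to DMM replicate 1. Results are therefore given over all 10 libraries, as the methods describe, and then over those 8. In a principal component analysis of log2 CPM, the first component (45.1% of the variance) placed DMM replicate 4 at 122.71 and the other 9 libraries between -20.69 and -2.36. On the second component (29%), DMM replicate 1 stood at 27.44, among PBS replicates 1, 2, 4 and 5 at 13.55 to 46.80, as did DMM replicate 4 at 15.34. PBS replicate 3 stood at -18.27 on that component, on the side of DMM replicates 2, 3 and 5 at -30.52, -50.45 and -51.48.

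All 8 family members were detected in every library and had enough counts to be tested. In DMM replicates 2 to 5, each of the 8 genes was below its lowest PBS library, as were 6.89% of all genes with DMM replicate 1 left out and 10.6% over the 8 libraries. In DMM replicate 1, 7 of the 8 were within the PBS range and Ifi203 was above it, so that the groups were apart for 0 of 8 members over 10 libraries, against 1.16% of all genes. The calls therefore turned on DMM replicate 1. Over all 10 libraries edgeR's quasi-likelihood test called 0 of 8 members lower, against 0% of all 16505 genes tested, where a call needed a fold change over 1.5 with adjusted p below 0.05. At an unadjusted p under 0.05 with the same fold change, 8 of 8 were lower, against 4.11% of all genes. DESeq2 also called 0 of 8 over the 10 libraries (0.227% of its tested genes) and had 8 of 8 lower at an unadjusted p under 0.05 (4.54%). Over the 8 libraries edgeR called 8 of 8 members lower, against 3.56% of 16550 genes, and DESeq2 8 of 8, against 4.55%. These 8 leave out DMM replicate 1 and PBS replicate 3, the lowest PBS kidney for 7 of the 8 members. Groups are set further apart by that choice, for which no reason is given. The p values over 8 libraries here and below hold only given it. With DMM replicate 1 alone left out, edgeR called 8 of 8 lower, against 2.6% of genes, whereas without PBS replicate 3 alone it called 0 of 8 (0%), with 8 of 8 at an unadjusted p under 0.05 (4.41%). The median log2 fold change of the members was -1.25 over 10 libraries and -2.02 over 8, where the median of all tested genes was 0.02 in both. In bulk tissue, fewer cells of a type that expresses these genes and less RNA of these genes per cell cannot be told apart.

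**Figure D1:**
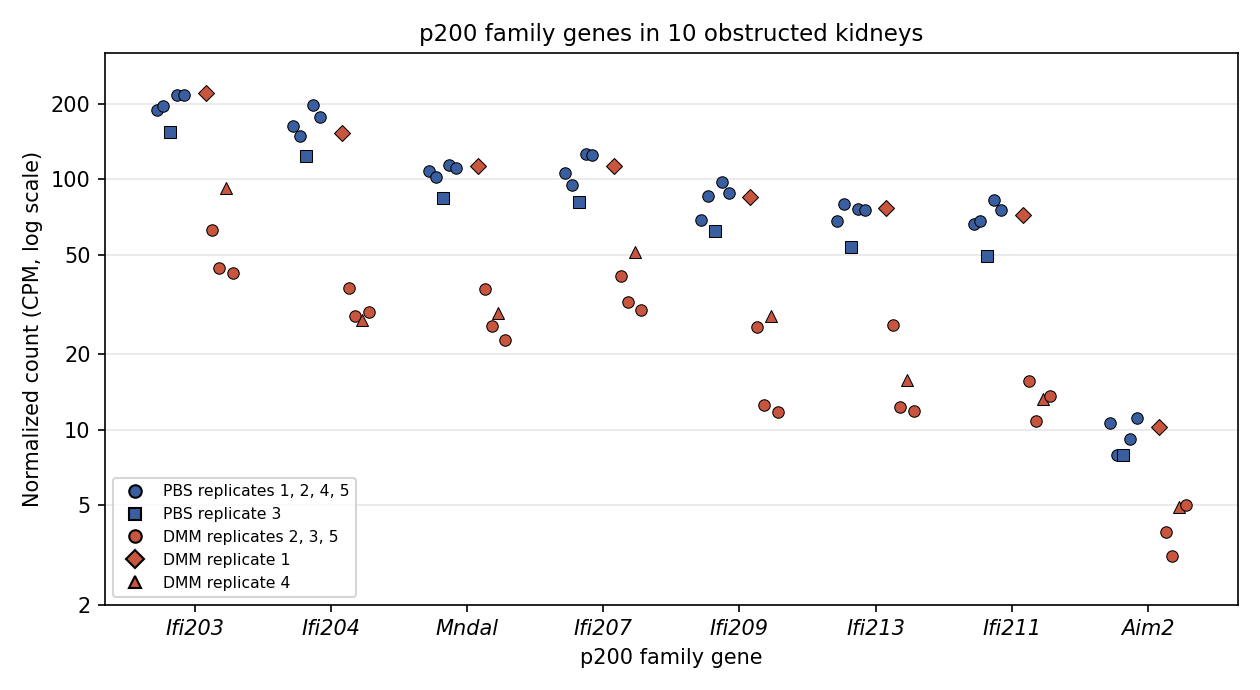
Normalized counts (CPM, log axis) of the 8 p200 family genes in each of 5 PBS kidneys (blue) and 5 DMM kidneys (red), with 1 point per library. The diamond, DMM replicate 1, lies level with the PBS points for 7 genes and above them for Ifi203, and the other 4 DMM points lie below every PBS point; squares mark PBS replicate 3 and triangles DMM replicate 4.

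Aim2 encodes a cytosolic sensor of double-stranded DNA that recruits the adaptor ASC and caspase-1 into an inflammasome. Its normalized count was 10.6, 7.89, 7.93, 9.20 and 11.2 CPM in PBS replicates 1 to 5 and 10.2, 3.91, 3.12, 4.89 and 4.98 CPM in DMM replicates 1 to 5. DMM replicate 1 lay among the PBS kidneys, and the other DMM kidneys lay below all of them. Aim2 was the least abundant member, with 55 to 200 reads per library. Its log2 fold change was -0.79 (standard error, SE, 0.29, unadjusted p = 0.0212, edgeR adjusted p = 0.394) over 10 libraries and -1.20 (SE 0.21, edgeR adjusted p = 0.0122) over 8. It had the smallest difference of the 8 members in both fits.

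Ifi204 encodes p204, which is often treated as a mouse counterpart of human IFI16 and takes part in the response to DNA through STING. It was at 163, 149, 124, 198 and 178 CPM in PBS replicates 1 to 5 and at 154, 36.7, 28.3, 27.5 and 29.5 CPM in DMM replicates 1 to 5. DMM replicates 2 to 5 formed a narrow band well under the PBS values, and DMM replicate 1 stood inside them. The log2 fold change was -1.56 (SE 0.48, unadjusted p = 0.00767, edgeR adjusted p = 0.378) over 10 libraries and -2.49 (SE 0.14, edgeR adjusted p = 7.45e-05) over 8. The highest of DMM replicates 2 to 5 had 29.5% of the lowest PBS value, the widest gap among the 8 members.

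Ifi203 encodes a nuclear member of the family and had the highest CPM of the 8. PBS replicates 1 to 5 had 190, 196, 155, 217 and 218 CPM, and DMM replicates 1 to 5 had 222, 62.7, 44.2, 92.7 and 42.4 CPM. DMM replicate 1 was above every PBS kidney, and DMM replicate 4 was the highest of the other DMM kidneys. The log2 fold change was -1.07 (SE 0.41, edgeR adjusted p = 0.408) over 10 libraries and -1.76 (SE 0.24, edgeR adjusted p = 0.00495) over 8.

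Mndal, named for its likeness to the myeloid nuclear differentiation antigen, encodes a nuclear protein linked to the control of cell growth. It was at 108, 102, 84.1, 114 and 111 CPM in PBS replicates 1 to 5 and at 113, 36.4, 26.1, 29.2 and 22.7 CPM in DMM replicates 1 to 5. Again DMM replicate 1 alone overlapped the PBS kidneys. The log2 fold change was -1.19 (SE 0.40, edgeR adjusted p = 0.385) over 10 libraries and -1.93 (SE 0.15, edgeR adjusted p = 0.000191) over 8.

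Ifi207, Ifi209, Ifi211 and Ifi213 are assigned to the family chiefly from their sequence, and less is known of what each does. Ifi207 was at 106, 95.3, 81.0, 127 and 125 CPM in PBS replicates 1 to 5 and at 113, 41.2, 32.4, 51.5 and 30.2 CPM in DMM replicates 1 to 5. The highest of DMM replicates 2 to 5 had 63.5% of the lowest PBS value for Ifi207 and 63.2% for Aim2, the narrowest gaps among the 8 members. Its log2 fold change was -0.99 (edgeR adjusted p = 0.385) over 10 libraries and -1.55 (SE 0.19, edgeR adjusted p = 0.00261) over 8. Ifi211 ranged from 49.4 to 82.8 CPM in PBS kidneys and from 10.8 to 15.6 CPM in DMM replicates 2 to 5, with DMM replicate 1 at 72.2 CPM. The log2 fold change of -1.45 (edgeR adjusted p = 0.387) over 10 libraries and -2.46 (SE 0.15, edgeR adjusted p = 7.45e-05) over 8 was near that of Ifi204. Ifi209 ranged from 62.4 to 97.3 CPM in PBS kidneys and stood at 25.7 and 28.3 CPM in DMM replicates 2 and 4 and at 12.6 and 11.7 CPM in DMM replicates 3 and 5, with 84.8 CPM in DMM replicate 1. The DMM kidneys other than replicate 1 thus formed a higher and a lower pair for Ifi209. Ifi213 ranged from 53.7 to 79.6 CPM in PBS kidneys and had 76.5, 26.1, 12.4, 15.8 and 11.9 CPM in DMM replicates 1 to 5. Log2 fold changes over 10 and 8 libraries were -1.30 and -2.12 for Ifi209 (edgeR adjusted p = 0.391 and 0.00556) and -1.31 and -2.18 for Ifi213 (edgeR adjusted p = 0.388 and 0.00175).

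All 8 members had DMM replicates 2 to 5 below every other kidney. Among those DMM kidneys the order differed by gene, with replicate 4 the highest for Ifi203 and the lowest for Ifi204. Relative to the mean of the 5 PBS kidneys, the mean log2 CPM of the 8 genes was -0.00, -0.02, -0.34, 0.20 and 0.17 in PBS replicates 1 to 5. It was 0.10, -1.62, -2.20, -1.66 and -2.13 in DMM replicates 1 to 5. PBS replicate 3 was the lowest PBS kidney for 7 of the 8 genes, and for Aim2 it was next to the lowest. Its family mean was nonetheless far closer to the other PBS kidneys than to DMM replicates 2 to 5. Among those 4 DMM kidneys, replicates 3 and 5 had the lower family means. When DMM replicate 4, the library apart on the first component, was left out, 0 of 8 members were called (0% of all genes) and edgeR's unadjusted p under 0.05 still took in 8 of 8 as lower (4.27%), with a median log2 fold change of -1.11.

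Levels of different genes were compared on the FPKM scale, which is per deposited gene length. For each family gene that length was the number of its annotated exonic bases over all its transcripts. It was 6706 bases for Ifi203 with 9 transcripts and 1785 bases for Ifi211 with 1. The order and the shares of summed FPKM below therefore depend on the annotation. In PBS kidneys the order was Ifi204 with 45.2 ± 7.84 FPKM (SD, n = 5), Ifi211 with 38.1 ± 7.02, Ifi207 with 31.0 ± 5.75, Ifi203 with 28.9 ± 3.82, Mndal with 28.4 ± 3.29, Ifi209 with 22.5 ± 4.07, Ifi213 with 10.2 ± 1.51 and Aim2 with 2.65 ± 0.43. Ranges of neighbours in this order overlapped from Ifi204 down to Ifi209, and Ifi213 and Aim2 were each apart from the gene above. In the 4 DMM libraries that carry weight in the deposited mean, Ifi207 came first with 11.3 ± 2.77 FPKM (SD, n = 4), followed by Ifi203 with 8.95 ± 3.42, Ifi204 with 8.51 ± 1.17, Mndal with 7.83 ± 1.59 and Ifi211 with 7.41 ± 1.09. Ifi209 with 5.48 ± 2.41, Ifi213 with 2.40 ± 0.96 and Aim2 with 1.20 ± 0.25 FPKM came last, and only Aim2 was apart from its neighbour. Ifi203 was above Ifi204 in 1 of these 4 libraries, DMM replicate 4, with 13.7 against 7.65 FPKM, and below it in the other 3. DMM replicate 1 had the order of the PBS kidneys at its top, with 43.1 FPKM for Ifi204 and 40.3 FPKM for Ifi211.

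The make-up of the family signal differed along with its size. Ifi204 gave 20.6 to 22.8% of the summed FPKM of the 8 genes in PBS kidneys, 19.7% in DMM replicate 1 and 12.1 to 18.9% in DMM replicates 2 to 5. Ifi207 gave 13.7 to 15.8% in PBS kidneys, 15.1% in DMM replicate 1 and 19.2 to 23.6% in DMM replicates 2 to 5. Aim2 gave 1.08 to 1.48%, 1.34% and 1.78 to 3.25% in the same order. Ifi203 gave 13.3 to 14.5%, 15.1% and 14.5 to 21.7%, with each of DMM replicates 2 to 5 above the PBS range, the lowest of them by 0.002 percentage points. The ranges of Ifi209, Ifi211, Ifi213 and Mndal in those 4 kidneys overlapped those of the PBS kidneys. These differences in make-up were not tested. In reads, Ifi207 amounted to 0.641 to 0.705 of Ifi204 in PBS kidneys, 0.736 in DMM replicate 1 and 1.02 to 1.87 in DMM replicates 2 to 5, and the highest ratio was that of DMM replicate 4. Ifi203 amounted to 3.36 times the reads of Ifi204 in DMM replicate 4, against 1.10 to 1.71 in the other 9 libraries. Mndal amounted to 0.315 of the reads of Ifi203 in DMM replicate 4 and to 0.507 to 0.590 in the other 9. DMM replicate 4 therefore differed in the proportions of the family as well as on the first principal component.

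The table held another 6 genes of the family at the same locus, namely Ifi205, Ifi206, Ifi208, Ifi214, the pseudogene Ifi203-ps and Ifi202b. Over 10 libraries edgeR tested 5 of these and called 0. DESeq2, which gave no p for Ifi208, called Ifi214 (DESeq2 adjusted p = 0.00813). By edgeR's unadjusted p under 0.05, all 5 were lower over 10 libraries (4.11% of all genes), and 5 of 5 were called lower over 8 (3.56%). With each library left out in turn, 3 to 5 were lower by unadjusted p, with 3 without DMM replicate 2, 4 or 5 (3.59, 4.27 and 3.15% of all genes). Without DMM replicate 4, Ifi203-ps and Ifi208 had unadjusted p = 0.0525 and 0.0662. Ifi206, the most abundant of them, was at 42.9, 49.8, 39.2, 53.7 and 59.3 CPM in PBS replicates 1 to 5 and at 50.6, 13.0, 9.41, 9.54 and 7.36 CPM in DMM replicates 1 to 5. Ifi214 was the exception to the pattern of DMM replicate 1, with 1.73 CPM there, below its PBS range of 2.19 to 4.82 CPM. Its counts were low, between 4 and 82 reads. Its log2 fold change was -2.14 (SE 0.48, unadjusted p = 0.000945, edgeR adjusted p = 0.378) over 10 libraries. Ifi202b, known as a candidate gene of lupus susceptibility in other mouse strains and barely expressed in C57BL/6, had too few reads for the edgeR fits over 10 and 8 libraries, with 7, 11, 0, 31 and 37 reads in PBS replicates 1 to 5 and 18, 0, 0, 6 and 1 in DMM replicates 1 to 5. DESeq2 over 8 libraries called it lower (adjusted p = 0.00864) at these few reads.

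The 8 members lie within 591.8 kb of chromosome 1 in the mm10 build, from the start of Aim2 at 173350879 to the end of Ifi203 at 173942672. Aim2 (chr1:173350879-173466040) and Ifi209 (chr1:173630917-173647928) are on the plus strand and the other 6 members on the minus strand. These are Ifi213 (chr1:173566283-173599274), Ifi207 (chr1:173723427-173741747), Ifi204 (chr1:173747293-173766943), Mndal (chr1:173849126-173942491), Ifi211 (chr1:173896345-173913046) and Ifi203 (chr1:173920407-173942672). The span of Mndal holds that of Ifi211 and most of that of Ifi203 on the same strand, since Mndal has transcripts that start near the start of Ifi203. In the GENCODE M21 annotation Mndal shares 37 exonic bases with Ifi203 and 0 with Ifi211. Few other genes of the region were expressed. Of 46 other genes starting within 500 kb of the members, 33 had 0 reads in every library and only Cadm3, a cell adhesion gene whose span overlaps Aim2 on the opposite strand, was tested. Cadm3 was at 2.28, 2.94, 1.35, 2.93 and 2.88 CPM in PBS replicates 1 to 5 and at 3.15, 1.58, 1.02, 0.00 and 0.79 CPM in DMM replicates 1 to 5. At few reads, the groups overlapped over 10 libraries, through DMM replicate 1 and PBS replicate 3. Over 8 libraries every DMM kidney was below every PBS kidney, as for 10.6% of all genes. The log2 fold change was -0.92 (SE 0.66, edgeR adjusted p = 0.582) over 10 libraries and -1.70 (edgeR adjusted p = 0.186) over 8.

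**Figure D2:**
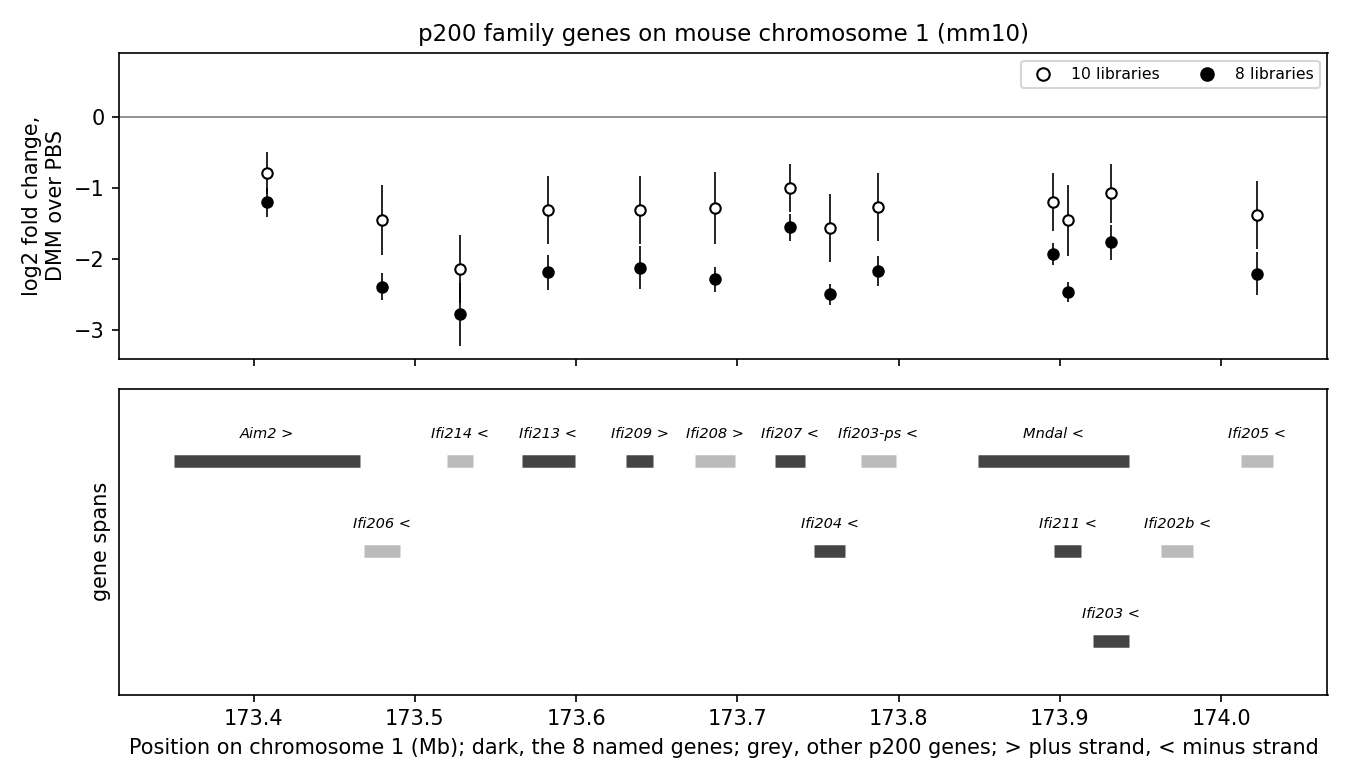
Log2 fold change of DMM over PBS (upper panel, edgeR, bars are standard errors) for each tested p200 family gene against its position on chromosome 1 in Mb, over 10 libraries (open) and 8 libraries (filled), above the gene spans (lower panel). All 13 tested genes lie below 0 in both fits, from -0.79 for Aim2 to -2.14 for Ifi214 over 10 libraries, and the spans of Ifi211 and Ifi203 lie on that of Mndal.

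Since the family arose by duplication, its members could share reads, and how reads with several matches were counted is not given in the sources used here. Every stretch of 100 bases in the GENCODE M21 transcripts of each member was therefore looked up, on both strands, in the transcripts of all other genes. Ifi211 had the largest shared part, 56.9% of its distinct stretches, of which 37.3% of the total were also in Ifi205, 19.6% in Ifi204 and 6.41% in Mndal. Ifi209 shared 16.9%, with Ifi214 alone, and Ifi204 shared 10.7%, mostly with Ifi211. Values of Ifi211, and to a lesser degree of Ifi209 and Ifi204, are uncertain to that extent. Mndal shared 6.38%, Ifi213 3.3%, Ifi203 2.84%, Ifi207 0.79% and Aim2 0%. The read length is not given in the sources used here, and the shares depend on the length looked up. With stretches of 150 bases, Ifi211 shared 46.4%, Ifi209 9.28% and Ifi204 6.77%. With stretches of 50 bases, Ifi211 shared 72.8%, Ifi209 33.8%, Ifi204 20.02%, Mndal 19.6%, Ifi213 15.6%, Ifi203 12.4%, Ifi207 7.29% and Aim2 0.74%, so that at that length Aim2 alone had under 1% in common with other genes.

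Because the members varied together, their promoters were searched for the interferon-stimulated response element, a motif found before many interferon-induced genes. The element was spelled GAAANNGAAA and sought on both strands in the 250 bases before each transcript start, in RefSeq promoters of the GRCm38.p6 build. Of the 8 members, 7 had an entry in that table, all but Ifi204. The element was found in 5 of these 7 (Ifi203, Ifi207, Ifi211, Ifi213 and Mndal) and in 2.98% of all 32851 promoters searched. The gamma-activated site, TTCNNNGAA, which reads the same on both strands, was in none of the promoters of these 7 genes and in 7.02% of all promoters. The spelling GAAATCGAAA was picked as the commonest form of the first element in these same p200 promoters, some of which are near copies, so that a high share of the family is built in. It occurred in the promoters of 13 genes in the whole table, of which 7 were p200 genes, namely Ifi203, Ifi207, Ifi213, Mndal, Ifi206, Ifi208 and Ifi214. The 60 bases around the element are shown for the 5 members that hold it, on the strand of the gene, with the element in capitals, so that the bases on either side can be compared. They lie at chr1:173942493-173942552 for Ifi203, chr1:173880189-173880248 for Mndal, chr1:173741816-173741875 for Ifi207, chr1:173913049-173913108 for Ifi211 and chr1:173599311-173599370 for Ifi213, all on the minus strand.
Ifi203: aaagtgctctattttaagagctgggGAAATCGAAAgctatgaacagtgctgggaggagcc
Mndal: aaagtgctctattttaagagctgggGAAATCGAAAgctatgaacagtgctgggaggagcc
Ifi207: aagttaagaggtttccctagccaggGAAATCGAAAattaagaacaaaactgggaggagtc
Ifi211: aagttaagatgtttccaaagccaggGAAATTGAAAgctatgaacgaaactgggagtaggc
Ifi213: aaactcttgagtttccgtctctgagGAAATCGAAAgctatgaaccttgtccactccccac

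The stretches of Ifi203 and Mndal were the same at 60 of 60 bases, and across the 10 pairs of these members from 29 to 60 of the 60 bases were the same. The element began 35 bases before the start in Ifi203, 36 in Mndal, 41 in Ifi207, 37 in Ifi211 and 73 in Ifi213. Ifi203 and Mndal each have a second start in the table; the element was not in the other Ifi203 promoter, and the other Mndal promoter held TTTCTCTTTC, a match on the opposite strand. Ifi209 had no match, and the stretch of its promoter most like that of Ifi213 (chr1:173630755-173630814, plus strand) follows with the corresponding bases in capitals, since it differs there by G26T, counted from 1 at the first base shown with the Ifi213 base first. The 2 stretches were the same at 41 of 60 bases.
Ifi209: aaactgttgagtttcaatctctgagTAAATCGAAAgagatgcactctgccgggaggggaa

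No match was found in the Aim2 promoter. A match describes these letters in this window and does not show that a factor was bound there. Ifi209 and Aim2, without a match, were below every PBS kidney in DMM replicates 2 to 5 as the other members were. Whether the element bears on the level of these genes was not tested.

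Genes of interferon signalling were read from the same fits. Of 11 tested genes for interferon receptors, kinases and transcription factors, edgeR called 0 over 10 libraries, 4 were lower at an unadjusted p under 0.05 and a fold change above 1.5 (4.11% of all genes), and 4 were called lower over 8 libraries (3.56%). The same shares of all genes apply to the counts of lower genes in each list below. The transcription factors Stat2, Irf9 and Irf1 were among those called. Stat2 ranged from 224 to 286 CPM in PBS kidneys and from 42.8 to 61.1 CPM in DMM replicates 2 to 5, with 260 CPM in DMM replicate 1, and Irf9 from 143 to 166 and from 49.8 to 76.0 CPM, with 163 CPM. Stat2 and Irf9 thus had the arrangement of libraries seen in the p200 genes. Irf1 differed, with 124 CPM in DMM replicate 1, below its PBS range of 130 to 161 CPM. It had 28.8 to 65.3 CPM in DMM replicates 2 to 5. Ifnb1 was listed at 0 in every library, and Ifng had at most 7 reads. The kinase Jak1, the most abundant gene of the list, had a log2 fold change of 0.07 (edgeR adjusted p = 0.834) over 8 libraries and was not called. Of 10 reference interferon-induced genes, 0 were called by edgeR over 10 libraries, 10 were lower at an unadjusted p under 0.05 (4.11%) and 10 were called lower over 8 (3.56%), with median log2 fold changes of -1.84 and -3.36. With each library left out in turn, 8 to 10 were lower by unadjusted p, with 8 without DMM replicate 2 or 3 (3.59 and 3.1% of all genes). Over 8 libraries 10 were called whichever was left out. The smallest p values of the list over 10 libraries were those of the GTPase genes Gbp2 and Irgm1, with log2 fold changes of -1.36 (edgeR adjusted p = 0.378) and -1.53 (edgeR adjusted p = 0.378) over 10 libraries and -1.89 (edgeR adjusted p = 0.00203) and -2.24 (edgeR adjusted p = 0.000123) over 8. Ifit3, an antiviral protein gene and the most abundant of them, was at 470 to 815 CPM in PBS kidneys, 584 CPM in DMM replicate 1 and 33.6 to 66.8 CPM in DMM replicates 2 to 5.

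Among other genes of DNA sensing, 17 were tested, of which edgeR called 0 over 10 libraries. By edgeR's unadjusted p under 0.05, 6 were lower (4.11% of all genes), and 7 were called lower over 8 (3.56%). The 7 were Mb21d1, Tmem173, Ikbke, Irf7, Zbp1, Samhd1 and Tlr9, the last an endosomal receptor. With each library left out in turn, 5 or 6 were lower by unadjusted p, with 5 without DMM replicate 4 (4.27%). Over 8 libraries 6 or 7 were called with each left out (1.63 to 7.61% of all genes). The median log2 fold change of the list was -0.20 over 10 libraries, -0.23 over 8 and -0.11 without DMM replicate 4, far from that of the p200 genes. Mb21d1, which encodes the DNA sensor cGAS, was at 8.83 to 14.8 CPM in PBS kidneys, 12.3 CPM in DMM replicate 1 and 4.01 to 6.01 CPM in DMM replicates 2 to 5 (log2 fold change -1.47, edgeR adjusted p = 0.003 over 8 libraries). Tmem173, which encodes its partner STING, was at 50.7 to 72.3 CPM, 62.2 CPM and 40.2 to 44.7 CPM in the same order (log2 fold change -0.66, edgeR adjusted p = 0.00926 over 8 libraries). The kinase Tbk1 and the factor Irf3, which act below STING, had log2 fold changes of -0.23 (edgeR adjusted p = 0.261) and -0.09 (edgeR adjusted p = 0.899) over 8 libraries and were not called. The value of Irf3 turned on DMM replicate 4, which had 15.0 CPM, where PBS kidneys had 42.6 to 45.8 CPM and the other 4 DMM kidneys had 46.8 to 52.6 CPM. Without DMM replicate 4 the log2 fold change of Irf3 over the remaining 9 libraries was 0.16 (unadjusted p = 0.013, edgeR adjusted p = 0.256), on the other side of 0. Irf7, an interferon-induced factor and the most abundant gene of the list, had 352 to 952 CPM in PBS kidneys, 488 CPM in DMM replicate 1 and 30.4 to 80.1 CPM in DMM replicates 2 to 5 (log2 fold change -3.61, edgeR adjusted p = 0.00119 over 8 libraries). Trex1 was listed at 0 in every library. That 0 may come from the counting, whose program is not given, and was not taken as absence of expression.

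Of the inflammasome and pyroptosis partners of Aim2, 11 were tested, 0 were called by edgeR over 10 libraries, 4 were lower (4.11% of all genes) and 1 higher (1.91%) at an unadjusted p under 0.05, and 3 were called lower over 8 (3.56%). These counts depended on single libraries. With each library left out in turn, 0 to 4 were lower by unadjusted p and 0 to 5 were called over 8, with 0 in both without PBS replicate 5, DMM replicate 3 or DMM replicate 5, and 5 without DMM replicate 4. Of all genes, 3.08, 3.1 and 3.15% were lower by unadjusted p without these 3 in that order, and over 8 libraries 1.63, 1.83 and 1.79% were called without them and 7.61% without DMM replicate 4. Pycard, which encodes ASC, was at 31.2, 27.4, 31.4, 30.4 and 32.6 CPM in PBS replicates 1 to 5 and at 26.2, 21.8, 16.9, 17.5 and 18.2 CPM in DMM replicates 1 to 5. Unlike the 8 members, Pycard was below every PBS kidney in DMM replicate 1 too. Its log2 fold change was -0.61 (edgeR adjusted p = 0.378) over 10 libraries and -0.71 (edgeR adjusted p = 0.0135) over 8. Gsdmd, which encodes the pore protein gasdermin D, had a log2 fold change of -1.20 (edgeR adjusted p = 0.0392) over 8 libraries, and Casp4 -0.84 (edgeR adjusted p = 0.0367). Of the 8 fits that leave out 1 of these libraries, Pycard was called in 5, and Gsdmd and Casp4 were each called in 1, that without DMM replicate 4. Casp1, at 3.12 to 10.6 CPM across all libraries, had -0.85 (edgeR adjusted p = 0.101), and the cytokine genes Il1b and Il18 had -1.16 (edgeR adjusted p = 0.289) and -0.59 (edgeR adjusted p = 0.362), with none of the 3 called. DMM replicate 4 had 29.5 CPM of Il1b and DMM replicates 2, 3 and 5 had 6.12 to 8.57 CPM. For Il1b the log2 fold change was -0.96 (unadjusted p = 0.0772) over 10 libraries and -1.50 (unadjusted p = 0.00611, edgeR adjusted p = 0.256) without DMM replicate 4, past the unadjusted threshold. Gsdme was the gene that was higher, with a log2 fold change of 1.07 (edgeR adjusted p = 0.203) over 8 libraries and 73.3 CPM in DMM replicate 4. The other 4 DMM kidneys had 15.4 to 22.2 CPM, and without DMM replicate 4 the log2 fold change over the remaining 9 libraries was 0.22 (unadjusted p = 0.117, edgeR adjusted p = 0.374), no longer past the unadjusted threshold. It was not past it without any 1 of the 5 PBS kidneys either.

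The 5 protein-coding genes outside the locus whose log2 CPM most resembled the family mean, of 14504 ranked by Pearson's r over 10 libraries, were Samhd1 (r = 0.998), Trim30d (0.997), Phf11b (0.997), Helz2 (0.997) and Fcgr1 (0.996). Samhd1 encodes a hydrolase that breaks down deoxynucleotides and Fcgr1 a high-affinity IgG receptor of macrophages and monocytes. In all, 163 genes had an r above 0.95. These r values are a description over 10 libraries that share the split between DMM replicates 2 to 5 and the rest. Within groups of the 8 libraries, after group means were removed, r was 0.965 for Samhd1, 0.930 for Trim30d, 0.960 for Phf11b, 0.920 for Helz2 and 0.924 for Fcgr1. The 5 genes were picked by r over 10 libraries that include these 8, so that the choice favours high values here. Values of r within groups for other genes are not given. Samhd1 had 275, 274, 248, 311 and 319 CPM in PBS replicates 1 to 5 and 287, 118, 90.8, 113 and 85.7 CPM in DMM replicates 1 to 5. The members themselves had r with their own mean between 0.943 for Aim2 and 0.995 for Mndal.

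Markers of leukocytes, in which p200 genes are known to be expressed, were lower in part, and how many passed differed from list to list. Of 10 macrophage markers, edgeR called 0 over 10 libraries, 5 were lower at an unadjusted p under 0.05 (4.11% of all genes) and 2 were called lower over 8 (3.56%), with medians of -0.44 and -0.51. With each library left out, 3 to 5 were lower by unadjusted p (3 without PBS replicate 5, DMM replicate 3 or DMM replicate 5), and over 8 libraries 5 were called without DMM replicate 4 (7.61% of all genes) and 1, Cd68, without any other (1.63 to 3.38%). Their summed level was 1699, 1567, 1358, 1598 and 1809 CPM in PBS replicates 1 to 5 and 1486, 1100, 943, 909 and 952 CPM in DMM replicates 1 to 5, with C1qb the most abundant and no marker at 0. The sum was lower in DMM replicates 2 to 5 than in every PBS kidney, and DMM replicate 1 lay among the PBS kidneys. In DMM replicate 4 this came from the 3 complement genes C1qa, C1qb and C1qc, at 125 CPM together against 718 to 1041 CPM in PBS kidneys. The other 7 markers summed to 784 CPM there, above the PBS range of 639 to 768 CPM, where they summed to 604, 524 and 523 CPM in DMM replicates 2, 3 and 5. Among its genes, Cd68 had a log2 fold change of -0.97 (edgeR adjusted p = 0.0108) and Adgre1, which encodes F4/80, -0.65 (edgeR adjusted p = 0.0959) over 8 libraries. Other markers of the list were above 0, with none called higher over 8 libraries (1 without PBS replicate 4, against 0.952% of all genes). Mertk, a receptor for apoptotic cells, was at 43.8 to 52.7 CPM in PBS kidneys, 50.7 CPM in DMM replicate 1 and 53.8 to 77.6 CPM in DMM replicates 2 to 5, with a log2 fold change of 0.44 (unadjusted p = 0.00733, edgeR adjusted p = 0.0762) over 8 libraries. Cd163 had 0.90 (edgeR adjusted p = 0.258) and Mrc1 0.08 (edgeR adjusted p = 0.893) over 8 libraries, and Mrc1 had 0.13 over 10 and -0.13 without DMM replicate 4. Of 5 pan-leukocyte markers, 0 were called by edgeR over 10 libraries, 3 were lower at an unadjusted p under 0.05 and 3 were called lower over 8. With each left out, 2 to 4 were lower by unadjusted p, with 2 without PBS replicate 5 or DMM replicate 2, 3 or 5, and 3 were called over 8, or 5 without DMM replicate 4 (7.61% of all genes). Their sum was 697, 625, 584, 674 and 744 CPM in PBS replicates 1 to 5 and 613, 437, 310, 447 and 319 CPM in DMM replicates 1 to 5, led by Laptm5. Coro1a, an actin-binding protein of leukocytes, had a log2 fold change of -0.92 (edgeR adjusted p = 0.0107) over 8 libraries.

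Of 7 monocyte markers, 2 were lower at an unadjusted p under 0.05 over 10 libraries and 2 were called over 8. Among these was Ly6c2, with a log2 fold change of -2.85 (edgeR adjusted p = 0.00713 over 8 libraries), further below 0 than that of any of the 8 p200 members. The median of the list was far smaller, at -0.29 over 10 libraries and -0.39 over 8. Ccr2, Itgam, Vcan and Chil3 had -0.39, -0.33, -0.31 and 0.19 over 8 libraries and were not called. The monocyte sum, led by Lyz2, was 865 to 1220 CPM in PBS kidneys, 1201 CPM in DMM replicate 1 and 562 to 742 CPM in DMM replicates 2 to 5. In DMM replicate 4 the markers differed. Lyz2 had 198 CPM there, against 565 to 890 CPM in PBS kidneys, and Ly6c2 and Plac8 were also below their PBS ranges. Ccr2, Itgam and Chil3 were within theirs, and Vcan, at 143 CPM, was above its PBS range of 34.4 to 86.2 CPM. The T cell sum, led by Cd4, was 53.5 to 93.2 CPM in PBS kidneys, 60.8 CPM in DMM replicate 1 and 21.1 to 52.4 CPM in DMM replicates 2 to 5. Of 10 T cell markers, 6 were lower at an unadjusted p under 0.05 and 1 was called over 8. Dendritic cell markers had 1 of 8 lower and 1 called, NK cell markers 3 of 7 and 1, B cell markers 0 of 5 and 0, and neutrophil markers 0 of 5 and 0, with none called by edgeR over 10 libraries in any of these lists. The share of all genes moved along with the counts of these lists when a library was left out. It was 4.11% by unadjusted p over 10 libraries, 6.74% without DMM replicate 1 and 3.08% without PBS replicate 5, and it was 3.56% called over 8, 7.61% without DMM replicate 4, 3.38% without DMM replicate 2, 1.79% without DMM replicate 5 and 1.63% without PBS replicate 5. With each library left out, the T cell count ranged from 2 (without PBS replicate 5) to 10 (without DMM replicate 1), and from 0 to 6 called over 8, with 6 without DMM replicate 2. Without DMM replicate 1, 3 dendritic cell and 4 NK cell markers were lower by unadjusted p. Over 8 libraries, leaving out DMM replicate 4 gave 5 monocyte, 4 dendritic cell and 1 B cell markers called, and leaving out DMM replicate 5 or PBS replicate 5 gave 0 dendritic cell and 0 NK cell markers. No marker of these lists was at 0 in every library. The part of any change in leukocyte number in the lower p200 level was not tested.

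Markers of other kidney cell types were read in the same way. Of 8 fibroblast markers, 0 passed as lower by unadjusted p over 10 libraries and 2 were called lower over 8, with medians of -0.48 and -0.82 (4 by unadjusted p without DMM replicate 1, against 6.74% of all genes, and 1 to 4 called over 8 with each left out, against 1.63 to 7.61%), and of 6 endothelial markers 0 were lower in both, with a median log2 fold change of 0.00 over 10 libraries. Of 8 proximal tubule markers, 2 were higher at an unadjusted p under 0.05 over 10 libraries (1.91% of all genes) and 3 were called higher over 8 (2.73%), with none called by edgeR over 10. The 2 were Lrp2 and Cubn. DMM replicate 4 had 2504 CPM of Lrp2, and DMM replicates 2, 3 and 5 had 913 to 1277 CPM. Without DMM replicate 4, 0 passed (1.86% of all genes), with unadjusted p = 0.121 for Lrp2 and 0.0553 for Cubn. Without PBS replicate 3, 6 passed (4.21%). Over 8 libraries 1 to 7 were called with each left out, with 1 without PBS replicate 5 (0.774% of all genes) and 7 without DMM replicate 4 (6.71%). Their sum, led by Lrp2, was 1634, 1644, 4086, 667 and 1228 CPM in PBS replicates 1 to 5 and 1164, 3187, 4038, 3985 and 4637 CPM in DMM replicates 1 to 5. PBS replicate 3 was thus with DMM replicates 2 to 5 in tubule markers, while in p200 genes it was with the PBS kidneys. Of 8 markers of other nephron parts, 0 were past the unadjusted threshold with that fold change and 3 were called higher over 8 (2.73% of all genes), with 4 past the unadjusted threshold without PBS replicate 3 (4.21%) and 0 to 5 called over 8 with each left out (0.774 to 6.71%). No marker of these 4 lists was at 0 in every library, and the part of tubule RNA in the p200 level was not tested.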

How the data were processed

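The authors aligned reads to mm10 (HISAT2 2.0.5 in the submitters' processing notes) and deposited gene counts, FPKM values and a comparison. The counting program and strand setting are not given in the sources used here. From that comparison only the authors' deposited group means (normalized signal, used to find the libraries weighted above 0) were read. Its fold changes and p-values were not used. Counts were tested with edgeR 4.0.16 in R 4.3.3 (TMM, filterByExpr, quasi-likelihood test, Benjamini-Hochberg adjustment over all tested genes) and, as an alternative, DESeq2 1.42.0, after a check on simulated data. CPM used TMM library sizes, and log2 CPM a prior count of 2. Other alternatives were RLE factors, library size alone, other filters, the replicate block and each library left out in turn. The 8 libraries came from the deposited means. Members and lists were chosen with earlier results of these data known. Named genes were the members, listed partners and the 5 most similar genes. The plan to name the 2 smallest p values and the most abundant gene of each list was followed in some lists only. Genes at 0, counts of 5 or fewer, macrophage markers above 0 and further monocyte markers are also named, after their values were seen. So are the DNA-sensing genes called over 8 libraries. The counts of several lists with each library left out were likewise added after values were seen. Totals of 15722527 to 19475833 reads bound the counting precision, and reads are not independent molecules. Nothing in the labels names separate cages or batches. Values of 1 listed gene are not reported here, though counts and medians of its list include it.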

Additional observations from a re-analysis of the deposited data

Results flagged for a closer look

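Each of 13 tested family genes was checked in both groups for a library set apart from the rest, by the gap to its nearest neighbour over the range of the group in log2 CPM, against Dixon's critical value of 0.71 for 5 samples. In 4 of 26 groups the value was higher, where chance gives about 1 in 20. All were DMM kidneys, and the library apart was DMM replicate 1, higher than the other 4. The ratio was 0.834 for Ifi204, 0.807 for Ifi211, 0.752 for Ifi208 and 0.735 for Ifi203-ps. The count depends on the scale. On CPM, without the log, 11 of the 26 groups were past the critical value, all of them DMM groups and among them all 8 members, with DMM replicate 1 again the library apart. These genes share libraries, and Ifi204 and Ifi211 share transcript stretches, so that they are not independent. No PBS group was past the critical value on either scale, and the highest there was 0.638 for Mndal in log2 CPM, with PBS replicate 3 lowest.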

How the results depend on the processing

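The log2 fold change of each of the 8 members was below 0 in 144 of 144 alternative values over 18 settings. The calls depended on the libraries. Genes called lower by edgeR numbered 0 over 10 libraries, 590 over 8 and 0 to 436 with each library left out in turn, and DESeq2 called 36 over 10. Genes called higher numbered 0, 452, 0 to 50 and 14 in the same order. Family members called numbered 0 over 10 libraries, 8 over 8 and 0 to 8 with each library left out, and the 436, 50 and 8 were all reached without DMM replicate 1. The cause was not tested. At an unadjusted p under 0.05, 6 to 8 members were lower with each library left out, with 6 without DMM replicate 2, where 3.08 to 6.74% of all genes passed. Over the 8 libraries, 7 or 8 members were called with each left out, with 7 without PBS replicate 5, where 1.63 to 7.61% of all genes passed.

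Same-numbered PBS and DMM kidneys had correlations of -0.06, 0.08, 0.34, 0.12 and -0.22 in their deviations from group means, so that they share only a number. With the replicate block, edgeR called 0 members over 10 libraries and 0 over 8, where 8 were called without it. The same held for all genes, of which 0% were called lower with the block in both, and across all genes the lowest adjusted p was 0.251 over 10 libraries and 0.0514 over 8, which the members reached too. The members' median log2 fold change was -1.60 with the block and -1.25 without it over 10 libraries, and -2.02 with and without it over 8, with adjusted p of 0.0514 to 0.201 under the block (edgeR). Only for replicate 2 of the 5 was the best partner the kidney of its own number. The block leaves fewer degrees of freedom, and replicates 1 and 3 have no partner among the 8 libraries.

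With 5 kidneys a group and 1 DMM kidney at the PBS level, the family has no call by edgeR's adjusted p that holds with and without that kidney. The labels and methods give no reason for the weight of 0 in the deposited means. Reads shared between members, above all Ifi211, limit values of single genes, and Aim2, Ifi214 and Ifi202b had few reads.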
